A study of Mus musculus with 56 samples.

Results

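The FMRP family consists of Fmr1 and its autosomal paralogs Fxr1 and Fxr2, which were chosen by name as 3 of the 23261 gene symbols in the 6 gene tables, together with every alternative splicing event listed under those symbols. Bulk RNA-seq covered 56 samples, which fall into 19 groups. From wild-type mice (WT), and from mice with an Fmr1 knockout (KO), came 3 samples each of 6 tissues: the cerebellum, cortex and hippocampus of the brain, and testis, muscle and liver. N2a cells, a mouse neuroblastoma line, received a non-targeting small interfering RNA (siNT, 2 samples) or one against Fmr1 (siFmr1, 3 samples). In a separate co-transfection experiment N2a cells received an siRNA and a plasmid together, in 5 groups of 3. The plasmid pcDNA accompanied siNT, siFmr1 or siMbnl1, a FLAG-tagged MBNL1 of nuclear location (nMBNL1) accompanied siFmr1, and a cytoplasmic one (cMBNL1) accompanied siMbnl1. The labels name neither the knockout allele nor the strain, age or sex of the mice, N2a is 1 line, and the labels do not say that samples of 1 group came from separate animals or cultures, so p-values measure the spread between these samples, which may be technical.

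FMRP, the product of the X-linked Fmr1, and its paralogs FXR1 and FXR2 are RNA-binding proteins with tandem KH domains and an RGG region. FMRP is best known in neurons, where it associates with polyribosomes and represses translation of many mRNAs, and its loss causes fragile X syndrome. FXR1 is known for a role in heart and skeletal muscle, where isoforms with additional exons near the C terminus are made, and FXR2 has been studied mainly in brain. MBNL1, the other protein manipulated in the cell experiment, is a splicing regulator that binds YGCY motifs in RNA. In GRCm38, with GENCODE M21 gene models, Fmr1 lies at chrX:68678541-68717963, Fxr1 at chr3:34019943-34070322 and Fxr2 at chr11:69632990-69653297, all on the plus strand. The question put to the data was whether Fxr1 and Fxr2 transcripts change in level or in splicing where Fmr1 is lost.

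Total counts per sample ranged from 26264368 to 41384652 in the brain table and from 13230785 to 16268865 in the tables of the other tissues and the first N2a experiment. Summed normalized values of the co-transfection samples ranged from 31871612 to 33196383. Defining markers of each labelled tissue were present in its samples. Marker lists are given as summed TPM (transcript abundance scaled to the library total and to transcript length). In the first N2a experiment 2 of the 4 neuron markers, Snap25 and Syt1, gave 56.6 to 258 with siNT and 101 to 235 with siFmr1. The other 2 neuron markers, Rbfox3 and Nefl, were not listed for it. In muscle, the summed TPM of the 3 adipocyte markers Adipoq, Cfd and Plin1 was 104 to 161 in WT and 223 to 560 in KO samples, and that of the satellite cell markers Pax7 and Myf5 was 2.29 to 2.75 in WT and 3.76 to 4.65 in KO samples. Its skeletal muscle fibre markers overlapped (115542 to 124043 in WT, 113641 to 127224 in KO), and its 3 microglia markers gave 30.6 to 32.8 in WT and 65.2 to 73.0 in KO samples. In the testis the 3 Leydig cell markers summed to 3274 to 4231 in WT and 2878 to 3229 in KO samples. In hippocampus the 3 oligodendrocyte markers summed to 5310 to 5583 in WT and 4313 to 4504 in KO samples, and of the 4 hepatocyte markers only Ttr was listed there, at 18.8 to 10299 TPM in WT and 27.9 to 11141 in KO samples. In cerebellum the 3 granule cell markers gave 2463 to 2613 in WT and 2683 to 2691 in KO samples, and the 3 endothelium markers 75.8 to 89.4 and 92.8 to 101. In cortex the 2 listed blood markers gave 437 to 554 in WT and 388 to 398 in KO samples. The 2 listed leukocyte markers gave 2.31 to 3.09 and 3.31 to 3.76 there. The part of these differences in the results below was not tested.

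In WT tissues each of the 3 genes had its own order of levels, given here as deposited TPM, a scale per transcript length that also allows comparison between genes. The tables were made separately, so levels across them are a description without a test. Fmr1 had its highest mean in cortex (75.2 ± 3.4 TPM, SD, n = 3), followed by cerebellum (70.5 ± 7.7), hippocampus (55.1 ± 2.8), testis (13.9 ± 1.2), liver (8.47 ± 1.68) and muscle (5.00 ± 1.05). The ranges of cortex and cerebellum overlapped, and the other neighbouring tissues in this order did not overlap. Fxr1 was highest in testis (822 ± 19 TPM) and muscle (343 ± 49), which did not overlap with any other tissue. Cerebellum (104 ± 7), cortex (95.1 ± 5.0) and hippocampus (94.4 ± 6.0) overlapped for Fxr1, and liver was lowest at 39.3 ± 7.4. Fxr2 was highest in cerebellum (135 ± 4 TPM), then hippocampus (104 ± 2), cortex (98.7 ± 1.8), muscle (79.8 ± 6.7), testis (51.3 ± 2.1) and liver (24.6 ± 1.1), with no overlap between neighbours.

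The first N2a experiment had a wide spread between its 2 siNT samples, which gave 33.98 and 5.66 TPM for Fmr1, 216 and 68.7 for Fxr1, and 60.04 and 43.2 for Fxr2. The range of these siNT samples overlapped with testis, liver and muscle for Fmr1, with the 3 brain regions for Fxr1, and with testis for Fxr2.

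**Figure D1:**
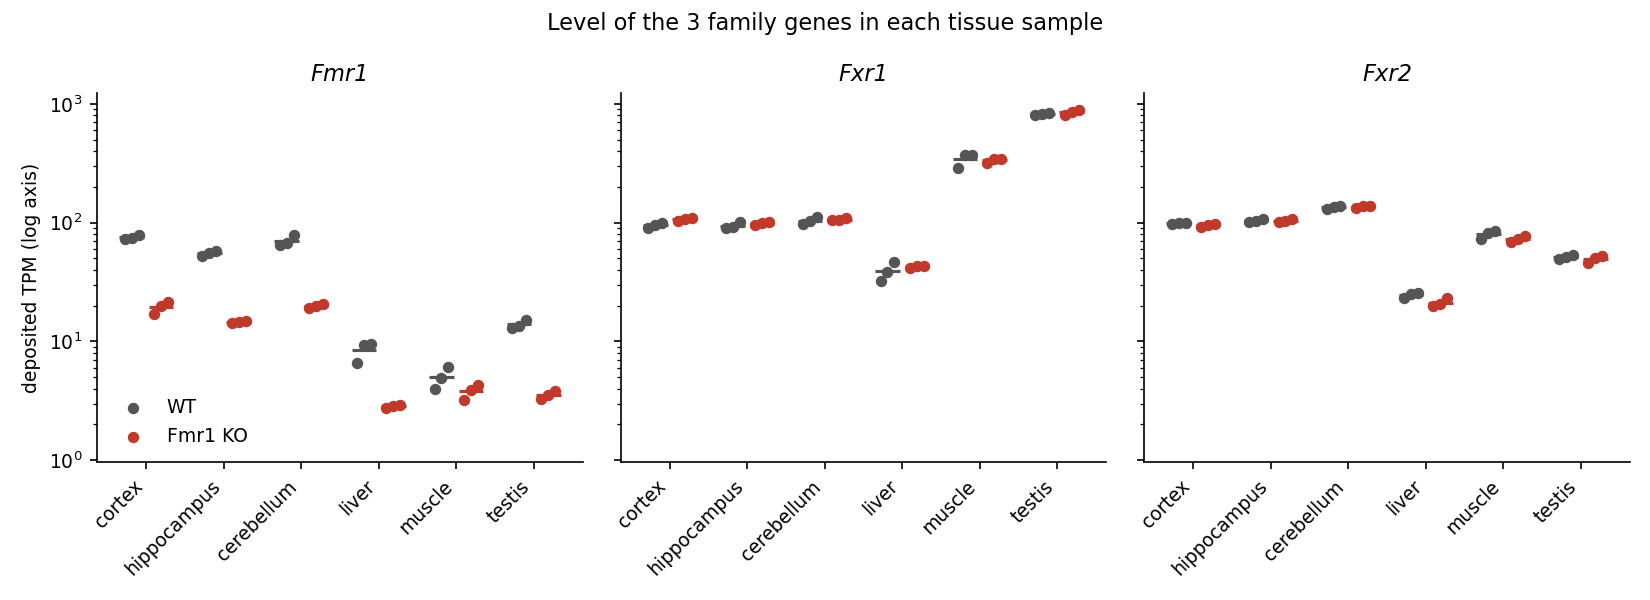
Deposited TPM (log axis) of Fmr1, Fxr1 and Fxr2 in each WT (grey) and Fmr1 KO (red) sample of 6 tissues, with a bar at each group mean (n = 3). Fmr1 KO samples lie below WT in every tissue except muscle, where the ranges 3.99 to 6.09 and 3.21 to 4.33 overlap; Fxr1 reaches its highest level in testis.

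The makeup of the family differed between tissues. Fmr1 gave 27.9% ± 1.1 (SD, n = 3) of the summed family TPM in WT cortex, 22.8% ± 1.8 in cerebellum and 21.7% ± 1.0 in hippocampus, but 11.7% ± 1.2 in liver, 1.57% ± 0.16 in testis and 1.18% ± 0.26 in muscle. Fxr1 gave 92.7% ± 0.3 of the family TPM in WT testis and 80.1% ± 1.3 in WT muscle. In the 3 WT brain regions Fxr2 had the largest mean share, from 36.7% ± 1.2 in cortex to 43.6% ± 2.5 in cerebellum. In WT cortex Fxr1 was close to it, at 35.3% ± 1.1. In KO cortex Fxr1 gave 48.0% ± 1.0 and Fxr2 43.2% ± 0.8.

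Over the 18 WT tissue samples the pattern of Fmr1 (log2 of CPM + 1, where CPM is the count scaled to the library total) was most like that of Prkci (Pearson r = 0.99), D630045J12Rik (0.99) and Cep170b (0.98), among 10353 genes. Fxr1 was most like Gnpat (0.99), Art3 (0.99) and Sav1 (0.99), and Fxr2 was most like Dennd4b (0.98), Maf1 (0.97) and Cd63 (0.97). Between members, r was -0.61 for Fmr1 and Fxr1, -0.01 for Fmr1 and Fxr2, and 0.31 for Fxr1 and Fxr2. These correlations are a description, because the samples share tissues and library preparations.

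The targeted gene was examined first, as a check of the labels. In cortex, Fmr1 measured 72.7, 79.0 and 73.7 TPM in WT samples and 17.1, 21.3 and 19.8 TPM in KO samples, with no overlap. On CPM after edgeR's TMM scaling between libraries, the KO mean was 25.6% of WT in cortex (log2 fold change -1.97 ± 0.08 SE, edgeR adjusted p = 3.03e-05), 26.8% in hippocampus (-1.90 ± 0.05, adjusted p = 8.11e-06) and 28.7% in cerebellum (-1.80 ± 0.07, adjusted p = 1.01e-07). Fmr1 ranked first by p among all genes in each brain region. Counts are summed over the whole gene, so transcript that lies outside an altered stretch still counts, and Fmr1 reads remained in every KO sample (632 to 1084 in brain).

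Outside the brain, Fmr1 in liver gave 6.53, 9.40 and 9.49 TPM in WT and 2.84, 2.94 and 2.76 in KO samples, and it fell to 32.6% of WT CPM (log2 fold change -1.61 ± 0.16, edgeR adjusted p = 0.00312). In testis it gave 15.2, 13.6 and 12.9 TPM in WT and 3.27, 3.54 and 3.85 in KO samples, and fell to 25.7% of WT (-1.95 ± 0.11, adjusted p = 9.82e-19). Muscle was the exception. Fmr1 there gave 3.99, 6.09 and 4.92 TPM in WT and 3.21, 3.94 and 4.33 in KO samples, from 123 to 234 counts per sample, so that WT replicate 1 lay inside the KO range on this scale. On TMM-scaled CPM the muscle groups did not overlap and the KO mean was 65.4% of WT (-0.61 ± 0.17), but the change did not pass in edgeR (adjusted p = 0.0734). It passed in 3 of 11 alternatives. These were DESeq2 (adjusted p = 0.0356, where 8.36% of genes were called), a fit of all 18 liver, muscle and testis samples (0.0157) and the fit without WT replicate 1 (0.0437).

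The difference in the Fmr1 effect between tissues was tested over the 10860 genes shared by the liver, muscle and testis tables. The log2 effect in liver minus that in muscle was -1.01 ± 0.21 (edgeR adjusted p = 0.0152; 2.53% of genes were called for this contrast), and the effect in muscle minus that in testis was 1.33 ± 0.20 (adjusted p = 0.00216; 2.58% called). Without muscle KO replicate 3 the liver to muscle difference was -0.95 with adjusted p = 0.0507. Liver and testis did not differ beyond the spread in their Fmr1 effect (0.32 ± 0.20, adjusted p = 0.631), nor did any pair of brain regions pass. A bulk sample cannot tell fewer cells that make a transcript from less transcript per cell.

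Against this background Fxr1, the member with the highest TPM in liver, muscle and testis, passed the test in 0 of 14 comparisons by edgeR or limma, with 4 of 14 under 0.05 before adjustment and 0 of 7 called by DESeq2. The 4 were cortex, where 3110 of 14802 genes had such a p, and comparisons of co-transfected cells. Those were siFmr1 with nMBNL1 against siNT (7938 of 16219 genes) and against siFmr1 with pcDNA (2892), and siMbnl1 with cMBNL1 against siNT (7005). The nearest approach of Fxr1 in a tissue was in cortex. Fxr1 measured 89.7, 95.9 and 99.6 TPM in WT cortex and 109, 104 and 106 TPM in KO cortex, so that each KO sample was above each WT sample. The log2 difference was 0.15 ± 0.06, with a 95% interval for the fold of 1.01 to 1.22, and edgeR's adjusted p was 0.187, where 0.0203% of genes were called. The authors' deposited table gave an adjusted p of 0.0662 and a log2 fold change of 0.14 for the same gene.

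In hippocampus Fxr1 gave 90.3, 101 and 91.5 TPM in WT and 101, 95.6 and 99.0 in KO samples, and the groups overlapped. The log2 difference was 0.07 ± 0.05 there (fold interval 0.97 to 1.14, adjusted p = 0.595, 0.209% of genes called) and 0.05 ± 0.05 in cerebellum (0.95 to 1.12, adjusted p = 0.869, 0.226% called). A p that misses the threshold does not show equal levels, and these intervals give the range of folds that the samples allow. The Fxr1 effect was not shown to differ between cortex and the other regions, since no such contrast passed.

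Fxr1 levels in liver were 32.1, 46.9 and 38.8 TPM in WT and 41.2, 43.4 and 43.2 in KO samples, with the KO range inside the WT range (0.08 ± 0.13, adjusted p = 0.873, 0.411% of genes called). In testis, where Fxr1 is most abundant, WT samples gave 808, 816 and 843 TPM and KO samples 800, 861 and 885, also overlapping (0.05 ± 0.06, fold interval 0.95 to 1.13, adjusted p = 0.703, 4.27% called). In muscle the CPM of Fxr1 was lower in KO (409.8 ± 23.0 against 491.5 ± 76.5), with overlapping groups, a log2 difference of -0.26 ± 0.13 and adjusted p = 0.237, where 4.04% of genes were called. On the TPM scale muscle differed less, at 335 ± 14 in KO and 343 ± 49 in WT samples.

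Fxr2, the paralog with the largest mean share in each WT brain region, also passed in no tissue. In cortex it measured 99.7, 96.6 and 99.8 TPM in WT and 98.3, 96.6 and 92.6 in KO samples (log2 difference -0.06 ± 0.05, adjusted p = 0.572). Hippocampus (0.01 ± 0.04, fold interval 0.95 to 1.07) and cerebellum (0.04 ± 0.05, 0.96 to 1.11) were close to no difference, with overlapping groups. Testis gave -0.04 ± 0.07 (0.88 to 1.07).

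In liver and muscle the KO samples had lower Fxr2 values that did not pass the test. Liver gave 23.4, 25.5 and 24.97 TPM in WT and 20.5, 23.4 and 19.8 in KO samples, with a log2 difference of -0.26 ± 0.11 on CPM (adjusted p = 0.437). Muscle gave 81.4, 85.5 and 72.5 TPM in WT and 73.0, 76.7 and 68.7 in KO samples, and on CPM the groups did not overlap (153.6 ± 14 in WT, 120.2 ± 11.6 in KO, -0.35 ± 0.11, edgeR adjusted p = 0.0944). The fit of all 18 liver, muscle and testis samples gave adjusted p = 0.0333 for Fxr2 in muscle, and the authors' deposited table gave 0.0453. That fit was the only 1 of 11 alternatives to call Fxr2 in muscle. DESeq2 as run here did not call it, and the highest adjusted p among the alternatives was 0.314. The KO effects on Fxr1 and Fxr2 were not shown to differ between any pair of brain regions or of liver, muscle and testis; the contrast nearest to passing was Fxr2 in muscle minus testis (-0.32 ± 0.14, adjusted p = 0.216).

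The summed TPM of the 3 genes, which includes the targeted Fmr1, was lower in KO brain samples. Cortex gave 269 ± 6 TPM in WT and 222 ± 3 in KO samples (82.4%), hippocampus 254 ± 9 and 217 ± 5 (85.7%), and cerebellum 309 ± 11 and 263 ± 4 (85.0%). None of these 3 pairs of groups overlapped, and the 2-sided exact permutation p was 0.1 in each, the smallest that 3 against 3 allows. The family total was 92.1% of WT in liver, 96.2% in muscle and 102% in testis, with exact permutation p from 0.5 to 0.7. The share of Fmr1 in the family was 8.74% ± 1.02 in KO cortex, 7.57% ± 0.14 in KO cerebellum and 6.74% ± 0.10 in KO hippocampus. Mean TPM of Fmr1 alone was 75.2 in WT and 19.4 in KO cortex, 55.1 and 14.6 in hippocampus, and 70.5 and 19.9 in cerebellum. The family total and its permutation p therefore do not test the paralogs.

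**Figure D2:**
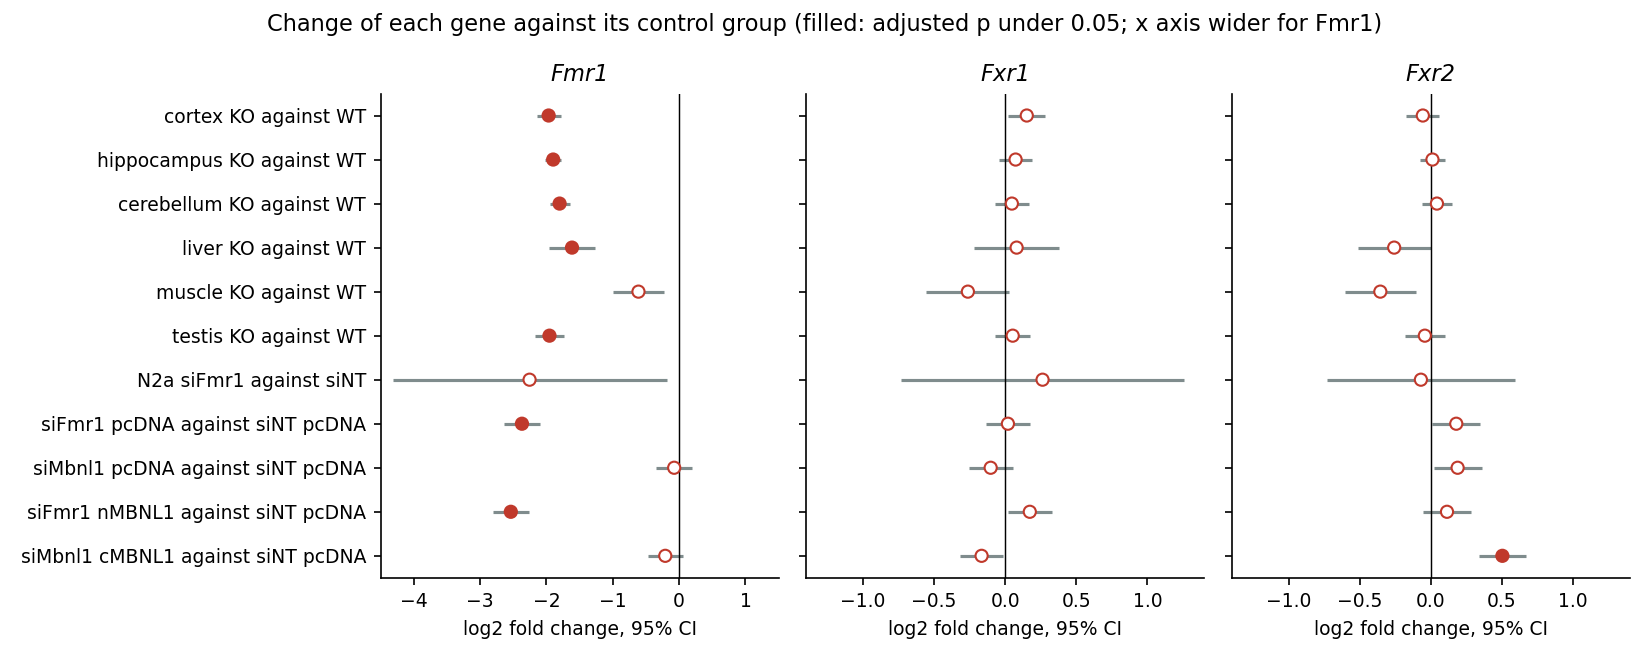
Log2 fold change (point) with its 95% confidence interval (line) of each gene in 11 comparisons against WT, siNT or siNT with pcDNA; filled points have an adjusted p under 0.05, and the x axis is wider for Fmr1. Fxr1 has no filled point, and the only filled Fxr2 point is siMbnl1 with cMBNL1, at 0.50.

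In the first N2a experiment 0% of 12187 genes were called by edgeR, with 47 under 0.05 before adjustment and 0 called by DESeq2. Counts of Fmr1 were 1168 and 326 with siNT against 210, 197 and 33 with siFmr1 (log2 difference -2.25 ± 0.86, unadjusted p = 0.0366, edgeR adjusted p = 0.9999). The counts did not overlap, but on TPM siFmr1 gave 6.62, 6.01 and 0.70, so that siNT replicate 2 (5.66) lay inside the siFmr1 range. The Fmr1 difference was -1.09 without siNT replicate 1. Fxr1 gave 241 and 113 CPM with siNT and 263, 261 and 136 CPM with siFmr1. The low values were siNT replicate 2 and siFmr1 replicate 3, which were also the lowest of their groups for Fmr1. The Fxr1 difference was 0.26 ± 0.42 (fold interval 0.60 to 2.40), and -0.11 without siNT replicate 2, and that for Fxr2 was -0.07 ± 0.27 (0.60 to 1.51), so this experiment sets no narrow limit on either paralog.

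The co-transfection experiment was more even. Fmr1 gave 2819, 3604 and 2856 normalized counts with siNT and pcDNA and 587, 583 and 612 with siFmr1 and pcDNA, or 19.2% of the control mean (log2 difference -2.37 ± 0.13, limma adjusted p = 1.06e-08). This experiment had broad changes, since 37% of 16219 genes were called for siFmr1 with pcDNA against siNT with pcDNA. Fxr1 was among the genes not called. It gave 11860, 12278 and 10119 normalized counts with siNT and 11370, 11109 and 12144 with siFmr1 (0.02 ± 0.07, fold interval 0.91 to 1.13, adjusted p = 0.863). Fxr2 gave 2947, 3529 and 3641 with siNT and 3913, 3725 and 3776 with siFmr1, with each siFmr1 sample higher and a log2 difference of 0.18 ± 0.08 (fold interval 1.01 to 1.27). The Fxr2 difference did not pass (adjusted p = 0.0871). It passed in 2 of 12 alternatives, without siNT replicate 2 (0.0382) or 3 (0.0370). Over the fits without 1 replicate its limma adjusted p reached 0.351.

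With nMBNL1 added to siFmr1, Fmr1 measured 418, 662 and 534 normalized counts (-2.54 ± 0.13 against siNT with pcDNA, adjusted p = 3.11e-09, 41.1% of genes called). Fxr1 gave 12400, 12678 and 13439 in that group, all above the siNT samples, without passing (0.17 ± 0.07, adjusted p = 0.0669). It passed in 2 of 12 alternatives, without siNT replicate 1 (0.0386) or 2 (0.0091). Against siFmr1 with pcDNA, where 1.75% of genes were called, neither paralog passed, although the Fxr1 groups did not overlap (Fxr1 0.15 ± 0.07, adjusted p = 0.280; Fxr2 -0.07 ± 0.08, adjusted p = 0.712).

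Knockdown of Mbnl1 left all 3 family genes uncalled, where 32.8% of genes were called. Mbnl1 itself measured 3759 to 5017 normalized counts with siNT, 1408 to 1538 with siMbnl1 and pcDNA, 11032 to 13253 with nMBNL1 and 16769 to 23339 with cMBNL1; these values may include plasmid transcript. Fmr1 gave 2908, 3092 and 2764 with siMbnl1 (-0.07 ± 0.13, adjusted p = 0.692), Fxr1 10823, 10547 and 10444 (-0.10 ± 0.07, adjusted p = 0.308) and Fxr2 3661, 3865 and 3967 (0.19 ± 0.08, adjusted p = 0.0792). Without siNT replicate 3, Fxr1 (0.0383) and Fxr2 (0.0349) passed, and Fxr2 also passed without siNT replicate 2 (0.0348). Neither paralog passed in any other of its 12 alternatives. In the direct comparison of siFmr1 with siMbnl1, 35.3% of genes were called, Fmr1 fell by 2.29 ± 0.13 (adjusted p = 8.30e-09), and neither paralog passed (Fxr1 0.12 ± 0.07, Fxr2 -0.01 ± 0.08).

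The change in paralog level that passed was that of Fxr2 with siMbnl1 and cMBNL1. These samples gave 4756, 4750 and 4783 normalized counts, all above the siNT samples, and Fxr2 rose by 0.50 ± 0.08 on the log2 scale (fold interval 1.26 to 1.59, limma adjusted p = 0.000157). Of all genes, 33.7% were called in that comparison. Against siMbnl1 with pcDNA the same samples were higher by 0.31 ± 0.08 (adjusted p = 0.0495, 2.24% called), but this call was lost in 9 of 12 alternatives, among them the removal of any 1 of the 6 samples (adjusted p from 0.0777 to 0.195). Fxr1 in the cMBNL1 samples gave 10146, 10108 and 10178 (-0.17 ± 0.07 against siNT, adjusted p = 0.0909). It passed in 1 of 12 alternatives, without siNT replicate 3 (-0.25, adjusted p = 0.00772). These comparisons share the siNT samples.

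**Figure D3:**
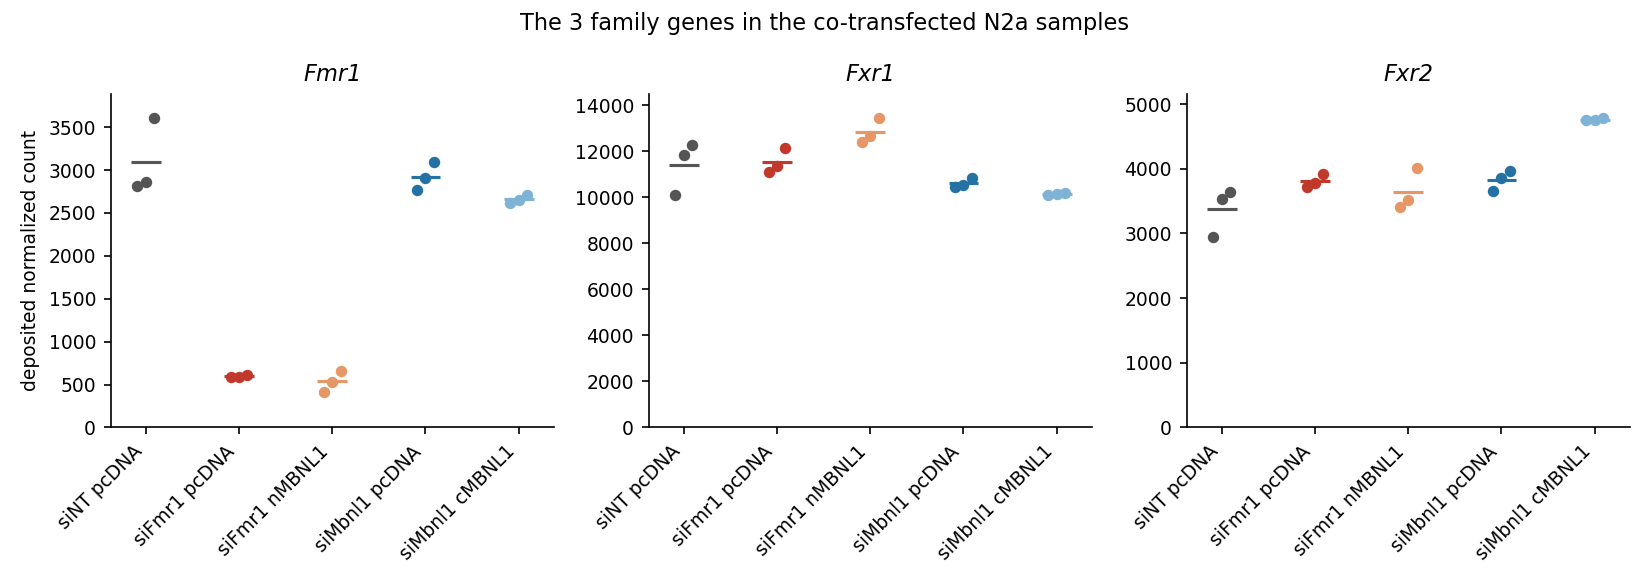
Deposited normalized counts of Fmr1, Fxr1 and Fxr2 in each of the 15 co-transfected N2a samples, with a bar at each group mean (n = 3). Fmr1 lies between 418 and 662 in the 6 siFmr1 samples, and Fxr2 lies between 4750 and 4783 in the 3 cMBNL1 samples, above all others.

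Over the 15 co-transfection samples, Fxr1 was most like Capza1 (r = 0.94), Mkln1 (0.94) and Usp15 (0.94), and Fxr2 was most like Nol9 (0.95), U2af2 (0.95) and Entpd6 (0.94), among 16218 genes. These values are a description, because the samples share treatments.

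Proteins that bind or act with FMRP were followed as a list of 24 genes. In the 6 tissues and the first N2a experiment 0 of 24 passed in edgeR (23 tested in liver). Before adjustment 6 were under 0.05 in cortex (3110 of 14802 genes), 3 in hippocampus (1852 of 14843) and 2 in cerebellum (1276 of 14627). Liver gave 2 (1365 of 11928), muscle 4 (3281 of 12688), testis 2 (2836 of 15465) and the first N2a experiment 0 (47 of 12187). DESeq2 called 2 in cortex, 1 in hippocampus, 2 in muscle and 0 elsewhere. Of all genes it called 904, 247 and 1093 in those 3 tissues. In the co-transfected cells, siFmr1 with pcDNA gave 3 higher and 5 lower of 24, where 37% of all genes were called, and the list median was -0.06 on the log2 scale beside 0.03 for all genes. Knockdown of Mbnl1 gave 3 higher and 9 lower (32.8% of all genes called, median -0.11 beside 0.01), siFmr1 with nMBNL1 against siNT 3 and 7 (41.1% called, -0.09 beside 0.04), and siFmr1 against siMbnl1 6 and 3 (35.3% called, 0.03 beside 0.01). The 2 comparisons of added MBNL1 against the same siRNA with pcDNA called 0 of 24 in limma. Of all genes 1.75% were called for nMBNL1 and 2.24% for cMBNL1. Before adjustment 4 of 24 were under 0.05 for nMBNL1, beside 2892 of all 16219 genes, and 12 of 24 for cMBNL1, beside 3145. With siMbnl1 and cMBNL1 against siNT, 6 of 24 were called, where 33.7% of all genes were. Of these Ncl, which encodes nucleolin, rose by 0.33 ± 0.11. The 5 members that fell were Stau2 (-0.81 ± 0.11), a double-stranded RNA-binding transport protein, Cyfip2 (-0.40 ± 0.12), a WAVE complex subunit, Purb (-0.36 ± 0.08), Top3b (-0.31 ± 0.08), a topoisomerase, and Myo5a (-0.30 ± 0.07), a myosin motor. The list median there was -0.03 beside 0.03 for all genes.

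Neighbours of Fmr1 on the X chromosome were also read. The annotation holds 32 genes that start within 1500000 bases of Fmr1, of which 1 was tested in each brain region, 7 in testis and 4 in the co-transfected cells. In testis Aff2, which lies 642331 bases from Fmr1 and encodes a nuclear protein, fell by 1.21 ± 0.30 on the log2 scale (edgeR adjusted p = 0.0122), the 1 gene called of 7 where 4.27% of all genes were, but DESeq2 called none of the 7. Aff2, the 1 neighbour tested in brain, was not called there (-0.007 ± 0.080 in cortex, -0.02 ± 0.10 in hippocampus, 0.18 ± 0.06 in cerebellum). In cells with siMbnl1 and cMBNL1, Gm14692 fell by 1.51 ± 0.34 (limma adjusted p = 0.00276), the 1 called of 4 where 33.7% of all genes were.

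Splicing of the family was read from 55 rMATS tables of 11 comparisons and 5 event types, which list 177 event and table pairs of these genes among 433007 in all. They comprise 46 distinct events, 16 of Fmr1, 24 of Fxr1 and 6 of Fxr2. Inclusion is the share of junction reads, corrected for length, that support the longer form. For a mutually exclusive pair it is the share of the reads counted for the pair that support its first exon, which is not that exon's inclusion over all transcripts. For 5 regions that the results below turn on, the sequence of the GRCm38 plus strand is shown 5′ to 3′ from the GENCODE M21 transcripts, with capitals at each YGCY motif on the transcribed strand, and lower case elsewhere. YGCY stands for TGCT and its variants, which are CGCT with another first base, TGCC with another last base and CGCC with both, and overlapping matches were merged.
Fxr1 92-base exon: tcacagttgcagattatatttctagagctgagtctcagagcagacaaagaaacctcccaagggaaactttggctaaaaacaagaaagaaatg
Fxr1 81-base exon: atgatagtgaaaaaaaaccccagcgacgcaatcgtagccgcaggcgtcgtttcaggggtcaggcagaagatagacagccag
Fxr1 87-base intron: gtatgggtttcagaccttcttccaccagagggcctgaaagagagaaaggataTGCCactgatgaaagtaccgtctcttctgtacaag
Fmr1 63-base exon: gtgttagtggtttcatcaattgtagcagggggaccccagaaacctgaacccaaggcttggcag
Fmr1 75-base stretch between acceptors: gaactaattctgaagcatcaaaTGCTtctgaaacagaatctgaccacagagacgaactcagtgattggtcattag
The first of these is the Fxr1 exon whose inclusion passed both tests below, at chr3:34068161-34068252, wholly within the coding sequence of the 2 of 6 coding transcripts that hold it. Its 92 bases are 30 codons and 2 bases, so that it shifts the frame, and the annotated stop codon lies at chr3:34069085-34069087 in transcripts with it and at chr3:34068931-34068933 in those without it that reach that end. The Fxr1 81-base exon (chr3:34064974-34065054) adds 27 codons and is held by 1 of 6 coding transcripts, and the Fxr1 87-base retained intron (chr3:34058082-34058168) adds 29 codons to 2 of 6. In Fmr1, the 63-base exon (chrX:68705861-68705923) adds 21 codons to 3 of 6 coding transcripts, and the 75-base stretch between alternative acceptors (chrX:68712231-68712305) adds 25 codons to 4 of 6. A YGCY match is present once in the Fxr1 intron and once in the Fmr1 75-base stretch, and is not in the 3 exons. Among internal coding-transcript exons of the same length a match is held by 69.9% at 92 bases, 63.2% at 81, 65.6% at 87, 50.7% at 63 and 59.4% at 75. The motif search covers these letters only, not the flanking introns.

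Of the 177 pairs, 146 reached a mean of 20 junction reads per replicate in each group, in tables large enough to be re-tested with a quasi-binomial model. The authors' deposited rule of a false discovery rate (FDR) under 0.05 and a difference of at least 10 points called 9 pairs, 7 of Fmr1 and 2 of Fxr1, where it called 3.1% of all pairs. The re-test with the same minimum difference called 2, both of Fxr1, where it called 0.672% of all, and 8 pairs, all of Fxr1, had a re-tested adjusted p under 0.05 at any difference, where 1.25% of all did. Fxr2 had no call by either rule.

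The Fxr1 92-base exon was included more where Fmr1 was knocked down in co-transfected cells. Inclusion was 62.4%, 61.7% and 57.7% with siNT and pcDNA and 73.5%, 73.6% and 72.9% with siFmr1 and pcDNA, from 2294 to 3099 junction reads per sample. The siFmr1 samples lay above all siNT samples, by 12.7 points (re-tested adjusted p = 3.99e-08, deposited FDR = 4.92e-08). Of the skipped exons in that comparison, 0.359% were called by the re-test and 2.11% by the deposited rule. The call was lost without shared information on the spread between events (adjusted p = 0.527) and with the replicate number as a block (0.451). With nMBNL1 added to siFmr1 the exon stayed at 74.4%, 75.2% and 75.3%, and the difference from siFmr1 with pcDNA (1.63 points, adjusted p = 0.693) did not pass.

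The siMbnl1 groups had differences of the opposite sign. Inclusion of the Fxr1 92-base exon was 55.2%, 57.2% and 55.2% with siMbnl1 and pcDNA (-4.72 points against siNT, adjusted p = 0.252) and 54.1%, 52.4% and 56.0% with siMbnl1 and cMBNL1 (-6.43 points, adjusted p = 0.0198, under the 10 point minimum, in a table where 1.24% of skipped exons had such a p). In the first N2a experiment inclusion was 66.9% and 77.7% with siNT and 70.9%, 75.1% and 71.4% with siFmr1, so that the siFmr1 samples lay between the 2 controls (0.13 points, adjusted p = 0.817). The difference between the 2 N2a experiments in this effect was not tested.

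The 81-base exon of Fxr1 had low inclusion in these cells. It was 3.80%, 3.74% and 2.09% with siNT and 7.60%, 7.19% and 7.56% with siFmr1 (4.24 points, adjusted p = 0.000511), and a second listing of this exon with another flanking exon gave 5.37 points (adjusted p = 0.000183). Both are under the 10 point minimum, in a table where 0.619% of skipped exons had a re-tested adjusted p under 0.05 at any difference. The 87-base intron was retained at 44.0%, 38.7% and 37.8% with siNT, 32.2%, 33.9% and 32.1% with siFmr1 (-7.41 points, adjusted p = 0.0170) and 32.4%, 34.2% and 31.3% with siMbnl1 (-7.52 points, adjusted p = 0.0130). Such a p was reached by 5.56% and 2.34% of the retained introns re-tested in these 2 comparisons. A mutually exclusive pair whose first exon has 201 bases gave 72.3% ± 2.9 with siNT and 79.9% ± 1.9 with siMbnl1 (7.57 points, adjusted p = 0.0342, where 4.07% of pairs had such a p). Listed as a skipped exon in the same samples, the 201-base exon of Fxr1 was included at 100% and 99.93%. The Fxr1 exon events share junction reads with each other, and the second exon of that pair is the 92-base exon, so they are not independent. In testis the intron (36.7%, 35.5% and 36.6% in WT, 37.5%, 37.9% and 39.2% in KO) and the 81-base exon (10.2%, 11.5% and 13.1% in WT, 13.8%, 13.8% and 13.6% in KO) had KO samples above WT without passing, with adjusted p of 0.652 and 0.689.

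**Figure D4:**
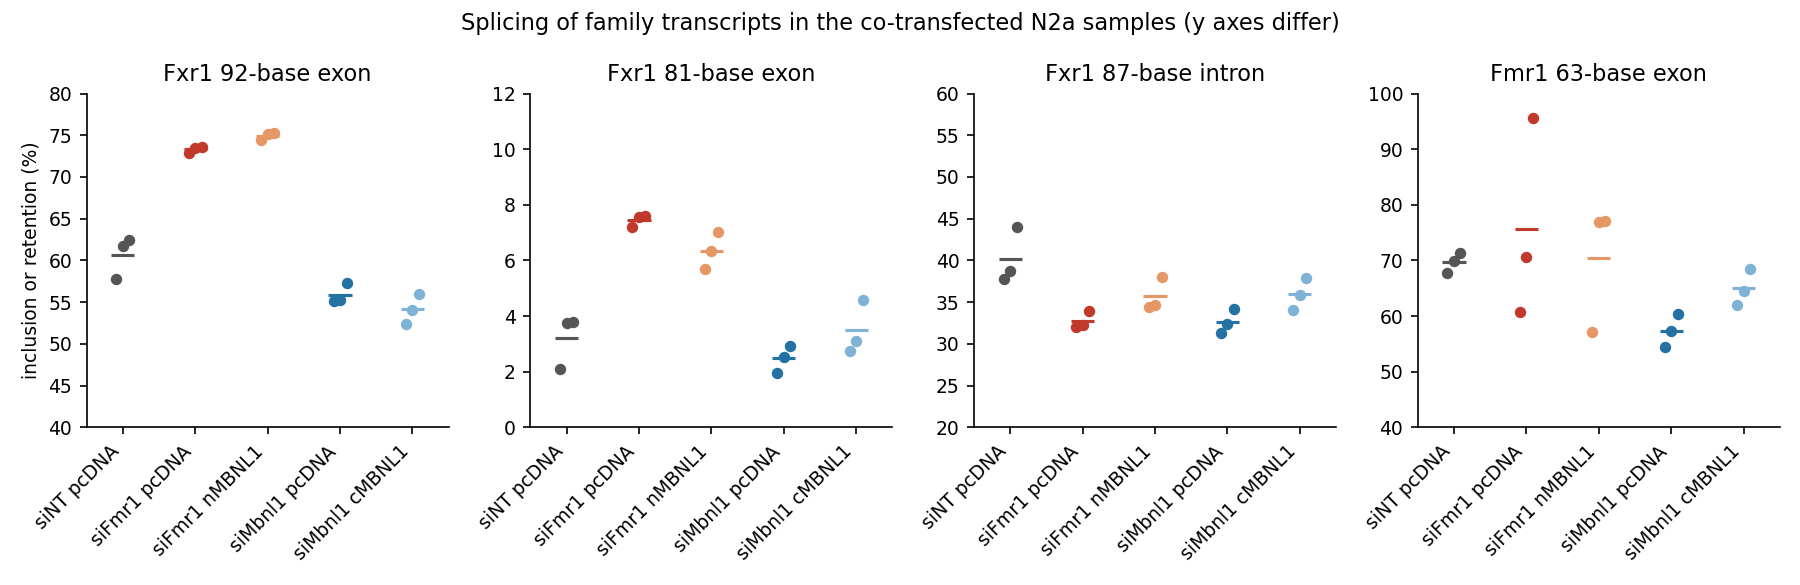
Inclusion of 2 Fxr1 exons and 1 Fmr1 exon, and retention of an Fxr1 intron, in percent of length-corrected junction reads, in each of the 15 co-transfected N2a samples, with a bar at each group mean (n = 3; y axes differ). The Fxr1 92-base exon lies at 72.9% to 75.3% in the 6 siFmr1 samples and at 52.4% to 62.4% in the other 9.

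In KO tissues, which include muscle where Fmr1 itself did not pass in edgeR, the Fxr1 92-base exon passed neither test. In testis it gave 80.4%, 80.6% and 79.2% in WT and 81.1%, 80.8% and 79.5% in KO samples, from 2968 to 3513 reads, and the difference was 0.38 points. Muscle gave 96.0%, 97.0% and 96.2% in WT and 94.3%, 94.7% and 92.7% in KO samples, with no overlap and a difference of -2.48 points (adjusted p = 0.676). Liver lay between 21.9% and 31.6% in all 6 samples. The brain regions had 24 to 75 junction reads per sample and ranged from 17.6% to 55.6%, with SDs within groups from 2.57 to 16.6 points. The differences of -5.06 points in cortex, 8.11 in hippocampus and -3.17 in cerebellum did not pass (adjusted p of 0.843, 0.627 and 0.769).

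Across tissues the 2 Fxr1 exons had different patterns. The 81-base exon was included at 98.3% to 99.4% in the 6 muscle samples, 10.2% to 13.8% in testis and 0% to 3.59% in liver. In cortex it ranged from 39.4% to 76.5% and in hippocampus from 40% to 91.7%, on 10 to 23 reads per sample, and in cerebellum from 0% to 25% on 6 to 15 reads. The cortex and hippocampus ranges did not overlap with that of cerebellum, and this difference was not tested.

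**Figure D5:**
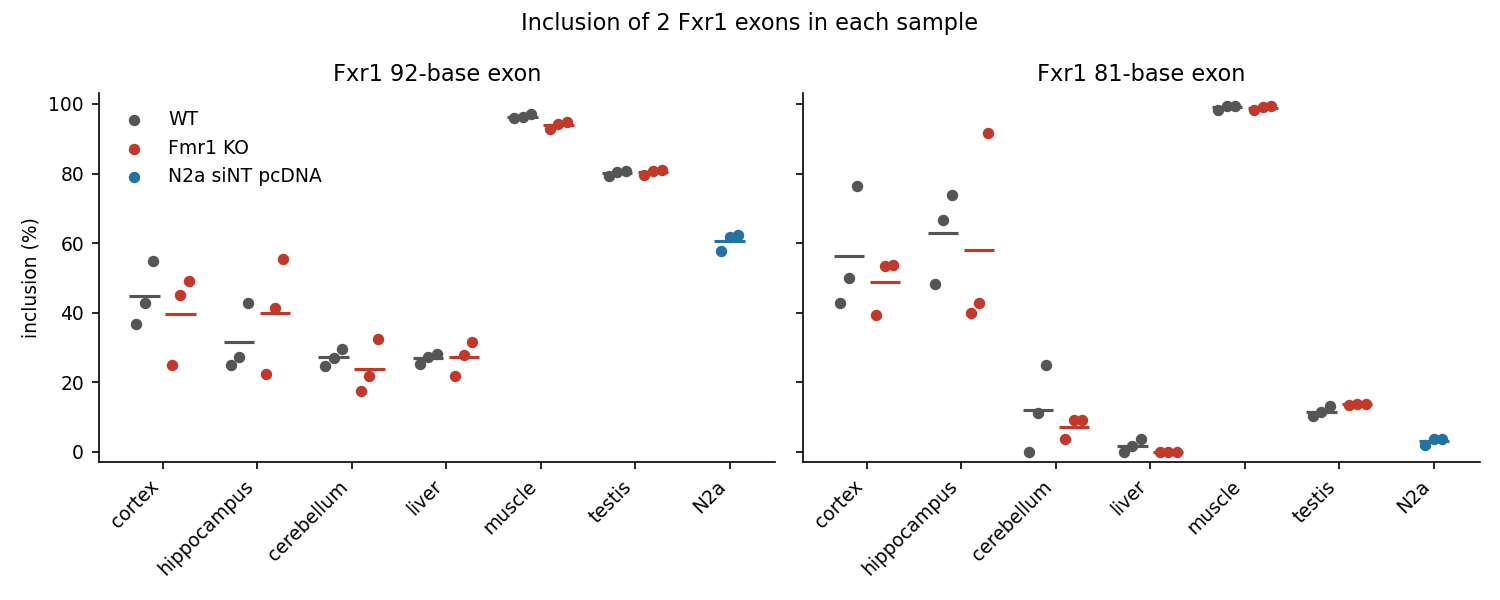
Inclusion (percent) of the Fxr1 92-base and 81-base exons in each WT (grey) and Fmr1 KO (red) tissue sample and in N2a cells with siNT and pcDNA (blue), with a bar at each group mean (n = 3). In muscle both exons exceed 92%, and in testis the Fxr1 92-base exon lies at 79.2% to 81.1% while the 81-base exon lies at 10.2% to 13.8%.

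The second re-tested call was a mutually exclusive pair of Fxr1 in testis, with a first exon of 94 bases at chr3:34046966-34047059. The share of the first exon in the pair was 53.4%, 54.3% and 54.2% in WT and 58.7%, 68.9% and 65.8% in KO samples, which did not overlap, a difference of 10.5 points (re-tested adjusted p = 0.00918, deposited FDR = 0.000362). Listed as skipped exons in the same testis samples, this Fxr1 exon was included at 99.96% to 100% and the second exon of the pair, of 117 bases, at 99.88% to 100%, so the call concerns the balance of the reads counted for the pair and not a change in inclusion of either exon. Of these pairs in testis, 4.48% were called by the re-test and 7.75% by the deposited rule. The call was lost without KO replicate 2 (8.26 points) or 3 (9.83 points), without WT replicate 1 (adjusted p = 0.0632) or 2 (0.0721), and without shared information on the spread (0.326).

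Fmr1 events were called by the deposited rule only. The 63-base exon fell from 67.7%, 71.2% and 69.9% with siNT to 54.5%, 60.3% and 57.4% with siMbnl1 by that rule (-12.2 points, deposited FDR = 0.000844, where 2.36% of skipped exons were called), but not in the re-test (adjusted p = 0.270). With siMbnl1 and cMBNL1 it gave 62.1%, 68.4% and 64.5% (-4.63 points, adjusted p = 0.715). In the same cMBNL1 samples 2 mutually exclusive pairs that share a 110-base exon were called by the deposited rule, where 18.7% of all such pairs were. As skipped exons in these samples, the 110-base exon of Fmr1 was included at 99.72% with siNT and 99.75% with cMBNL1, and the 79-base exon paired with it in the first at 100% and 99.75%. Their differences were 12.1 points (re-tested adjusted p = 0.286) and -9.95 points (-10.0 as deposited; re-tested adjusted p = 0.194). The first of them had 14.4%, 35.7% and 34.9% with siNT, so that siNT replicate 1 stood apart.

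The remaining 4 deposited calls were of the 75-base stretch between Fmr1 acceptors, in samples where Fmr1 itself was low. In testis, the longer form gave 65.8%, 72.8% and 63.2% in WT and 100% in each KO sample, on 20 to 31 reads in WT and 6 to 8 in KO samples (deposited FDR = 9.26e-05, 2.09% of such events called). In the first N2a experiment it gave 72.8% and 85.7% with siNT and 100% with siFmr1, on 2 to 4 reads in the siFmr1 samples (20.7 points, 1.73% called). In hippocampus it gave 9.09%, 23.8% and 28.0% in WT and 0%, 20% and 0% in KO samples, on 3 to 4 reads in the KO samples (-13.6 points, 0.959% called). With siFmr1 and pcDNA a second listing gave 100%, 86.1% and 75.0% with siNT and 100% in each siFmr1 sample, on 11 to 14 reads in the siFmr1 samples (13 points, 5.33% called). The main listing of this Fmr1 stretch in the same comparison gave 88.68%, 85.1% and 82.41% with siNT (115 to 278 reads) and 100%, 84.18% and 92.09% with siFmr1 (15 to 37 reads), with overlap, and passed neither test (6.69 points, re-tested adjusted p = 0.815, deposited FDR = 0.162). None of the 4 had the 20 reads per replicate needed for the re-test, and their signs differ. In the WT samples the longer form ranged from 9.09% to 35.1% in brain and from 63.2% to 72.8% in testis.

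The deepest Fmr1 skipped exon, of 196 bases, lay at 96.7% to 100% in the 9 siNT, siMbnl1 and cMBNL1 samples. The deepest Fxr1 alternative donor event lay at 97.5% to 100% in every sample where it was listed, and its alternative acceptor event in testis at 99.8% to 100%. Fxr2, by contrast with Fxr1, showed little alternative splicing in the 6 of 11 comparisons that list an event of it. No Fxr2 event was listed in any brain region, so its splicing there was not seen. The 5 skipped exons of Fxr2 had at least 98.1% inclusion in every replicate where they were listed, and the largest difference between groups was 0.862 points. Its 1 mutually exclusive pair, listed for nMBNL1 against siFmr1 with pcDNA, gave 24.6% to 32.5% (2.76 points, adjusted p = 0.920), while its exons of 53 and 94 bases, listed as skipped exons in the same samples, were each included at 99.55% or more.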

How the data were processed

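Gene counts and TPM were deposited by the authors for 6 tissues and the first N2a experiment, and normalized counts, a signal scaled between samples, for the 15 co-transfection samples. Per the submitters' processing notes, which give no roles, the tools were CASAVA, FastQC 0.11.8, Trimmomatic 0.39, Bowtie2 2.3.5, STAR 2.6.1, RSEM 1.3.1 and DESeq2 1.16.1, with builds GRCm38 and mm10. The authors' deposited tables also give log2 fold changes and adjusted p-values, and, per the file headers, rMATS junction reads, inclusion and FDR. Per the labels' protocols, brain libraries were directional poly(A) libraries made with a NEXTflex kit, and a sequencing company made those of the first N2a experiment and of testis, muscle and liver.

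Counts were tested here with edgeR 4.0.16 (R 4.3.3; quasi-likelihood, filterByExpr, TMM, 95% intervals) within each tissue, and differences between tissues in joint fits of 18 samples. Normalized counts were tested with limma 3.58.1 (trend) of log2(value + 1) in 1 fit of all 15 samples, keeping genes whose mean was 1 or more, so log2 differences are on that scale. Their values are not whole multiples of a step, so read depth is unknown. P-values were adjusted by Benjamini-Hochberg over all genes, with a threshold of 0.05. DESeq2 1.42.0, other normalizations, filters, pseudocounts, a replicate block and leaving out each replicate were alternatives. Splicing events with a mean of at least 20 junction reads in both groups were re-tested with a quasi-binomial model, its dispersion moderated across events and at least 1, with an F test and a minimum difference of 10 points; 5 small tables were not re-tested. The scripts were tested on simulated data; at lower coverage or larger spread between replicates the splicing test recovered few changed events, so an uncalled event is not shown to be unchanged. Levels were planned as CPM per kilobase and are given as deposited TPM. In all 65 replicate columns of the rMATS tables, the best match by expression was the labelled sample. Left out were 4 muscle columns of 2 samples with no label here, 27 rows with a date in place of a symbol and 26 splicing events with damaged cells, none of a family gene. Sequences are from GENCODE M21.

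The family genes, the partner list and the other lists were chosen with earlier results of these data known. Named were the 3 family genes throughout, partner or neighbour genes called where at most 6 of the list were, the 3 genes most correlated with a family gene (mean of at least 5 CPM in tissues), and family splicing events that were called by either rule or had the most junction reads of their type.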

Additional observations from a re-analysis of the deposited data

Results flagged for a closer look

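The effect of the knockout on Fmr1 differed between tissues by a test of the difference itself. The log2 effect in liver minus that in muscle was -1.01 ± 0.21 (edgeR adjusted p = 0.0152), and the effect in muscle minus that in testis was 1.33 ± 0.20 (adjusted p = 0.00216). Fmr1 counts in muscle were 167, 234 and 195 in WT and 123, 144 and 156 in KO samples.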

How the results depend on the processing

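Of 1010 alternatives, 444 of the gene tests, 333 of the tests of a difference in KO effect and 172 of the splicing results kept their direction and side of the threshold. Fmr1 in muscle passed in DESeq2 (-0.62) and in the fit of 18 samples (-0.60), as did Fxr2 in muscle in that fit (-0.35). Fxr2 with cMBNL1 against siMbnl1 with pcDNA (0.31) no longer passed with a pseudocount of 0.5 (adjusted p = 0.0503), no filter (0.0568) or a replicate block (0.0691). Fxr1 in siFmr1 against siMbnl1 passed when only those 2 groups were fitted (0.12, adjusted p = 0.0493). Genes called by edgeR and by DESeq2 numbered 3 and 904 in cortex, 31 and 247 in hippocampus, 33 and 92 in cerebellum, 49 and 277 in liver, 512 and 1093 in muscle, and 661 and 470 in testis; the cause was not tested.

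Without 1 replicate, the log2 differences that changed sign or crossed the threshold in at least 1 fit ranged as follows. Fxr2 gave -0.011 to 0.025 in hippocampus, -0.10 to 0.019 in testis, -0.22 to 0.094 in the first N2a experiment, 0.085 to 0.24 with siFmr1, 0.095 to 0.25 with siMbnl1, 0.28 to 0.34 with cMBNL1 against siMbnl1 and -0.042 to 0.016 with siFmr1 against siMbnl1. Fxr1 gave -0.0047 to 0.19 in liver, -0.11 to 0.76 in the first N2a experiment, -0.065 to 0.074 with siFmr1, -0.19 to -0.047 with siMbnl1, 0.089 to 0.23 with nMBNL1 against siNT and -0.25 to -0.11 with cMBNL1 against siNT. Fmr1 gave -0.74 to -0.46 in muscle, -0.14 to 0.041 with siMbnl1 and -0.33 to 0.0015 with nMBNL1 against siFmr1. Differences in KO effect gave -0.14 to 0.0096 (Fmr1, cortex minus hippocampus), -0.0086 to 0.075 (Fxr1, hippocampus minus cerebellum), -0.055 to 0.0078 (Fxr2, the same), -1.17 to -0.89 (Fmr1, liver minus muscle) and -0.066 to 0.11 (Fxr1, liver minus testis, reversed in 5 of 18 fits). Fxr1 kept its sign in cortex (0.12 to 0.18), hippocampus (0.051 to 0.12), cerebellum (0.0047 to 0.085) and testis (0.025 to 0.087). So did Fxr2 in cerebellum (0.0067 to 0.068).

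The 2 splicing calls became 7 with a minimum difference of 0.05, 0 without moderated dispersion, 1 with the replicate block, and 1 to 2 without 1 replicate. The testis pair of 94 bases gave 10.5 points without moderation and 8.26 to 13.4 without 1 replicate. The Fxr1 92-base exon stayed at 12.7 points without moderation (adjusted p = 0.527) and with the block (0.451). The labels state no pairing by replicate number. At most 1 pair in a comparison, of 3 or of 2 in the first N2a experiment, had a correlation of deviations over 0.1. The highest were 0.77 in that experiment and 0.707 in hippocampus. The sample of the same number was the best match in 2 of 3 pairs for siMbnl1 with pcDNA against siNT. The same held for cMBNL1 against siNT and against siMbnl1 with pcDNA. With so few samples a group, these correlations cannot exclude pairing. In the first N2a experiment the block gave -1.51 for Fmr1, 0.56 for Fxr1 and -0.15 for Fxr2. Fmr1 there gave -2.89 to -1.09 without 1 replicate, the latter without siNT replicate 1. With 2 or 3 samples a group, small differences in level cannot be resolved, and low junction coverage limits splicing in brain and wherever Fmr1 is low.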
